A study of Oryza sativa with 6 samples.

Results

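GSTF1 and GSTZ5 are a pair of rice genes for glutathione S-transferases, and their transcripts were followed here in flag leaves with and without a disrupted OsSLAC7 gene. They are 2 of 17905 genes measured, and 2 of the 6 glutathione S-transferase genes that could be recognised by name. A gene was taken as its probe set, the group of short array probes for one transcript, with the highest mean over the 6 arrays. Both genes were selected on their difference between the groups, since earlier results of these data called them lower in mutant leaves, so this difference is described and not tested. The intervals given for GSTF1 and GSTZ5 take no account of this choice, which can make a difference look larger than it is. The arrays were Affymetrix Rice Genome Arrays, 1 per sample. The wild type group consisted of 3 samples of the japonica cultivar Zhonghua11. The mutant group consisted of 3 samples of the same cultivar with a T-DNA insertion, a piece of DNA transferred by Agrobacterium, in OsSLAC7 (Os01g0385400). Plants of both groups were untreated, and both were raised in a greenhouse and then grown in the field. Plant age, pooling of plants and the number of insertion lines were not given in the sources used here. The labels call the arrays of a group biological replicates without naming separate plants, so errors and p-values reflect how far these samples spread, which may be technical. Arrays of a group correlated across probe sets at 0.992 to 0.996 (Pearson), and mutant replicate 1 had the lowest weight, 0.57, when limma weighted the arrays.

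Glutathione S-transferases join the tripeptide glutathione to reactive or foreign compounds, which marks these compounds for transport into the vacuole, and some members act as peroxidases or isomerases instead. Plants hold several classes of these enzymes. The phi class (letter F) and the tau class (letter U) are large in plants and are known for detoxifying herbicides and products of oxidative stress. The zeta class (letter Z) is conserved between plants and animals. In Arabidopsis and in mammals, zeta enzymes convert maleylacetoacetate to fumarylacetoacetate, a late step in the breakdown of tyrosine. GSTF1, also named GST-I, belongs by its name to the phi class, and GSTZ5 to the zeta class. The gene tables used give no product for either gene, so class and function were not checked beyond the name. The RefSeq gene table places GSTF1 (LOC4325710) on chromosome 1 and GSTZ5 (LOC4332455) on chromosome 3.

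GSTF1 was lower in mutant leaves. Its log2 values, on a scale where 1 unit is a doubling, were 9.71, 9.87 and 9.79 in wild type replicates 1 to 3. In mutant replicates 1 to 3 they were 8.96, 8.95 and 8.50. The groups did not overlap, and the lowest wild type array lay 0.74 above the highest mutant array. Mutant replicate 3 was the lowest array, and the other 2 mutant arrays were nearly equal. The mean went from 9.79 ± 0.08 to 8.81 ± 0.26 (SD, n = 3 each), a difference of -0.99 (SE 0.13, 95% interval -1.30 to -0.68), with the SE and interval from a limma fit over all genes. On the linear scale the mutant level was 50.5% of the wild type level, with an interval of 40.7% to 62.6%.

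GSTZ5 was lower in mutant leaves by a much smaller amount. Its log2 values were 10.67, 10.72 and 10.76 in wild type replicates 1 to 3 and 10.51, 10.47 and 10.46 in mutant replicates 1 to 3. Replicates lay close together in both groups, and the groups were separated by a gap of 0.17. The mean went from 10.72 ± 0.04 to 10.48 ± 0.02 (SD, n = 3 each), a difference of -0.24 (SE 0.07, 95% interval -0.40 to -0.08). The mutant level was 84.6% of the wild type level on the linear scale, with an interval of 75.7% to 94.6%. The SD within groups, pooled over both, was 0.04 for GSTZ5 and 0.19 for GSTF1. A share of 3.1% of all genes had a pooled SD as small as that of GSTZ5 or smaller, against 78.6% for GSTF1. Each of these genes had 1 probe set, so no second probe set could be set beside it.

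**Figure D1:**
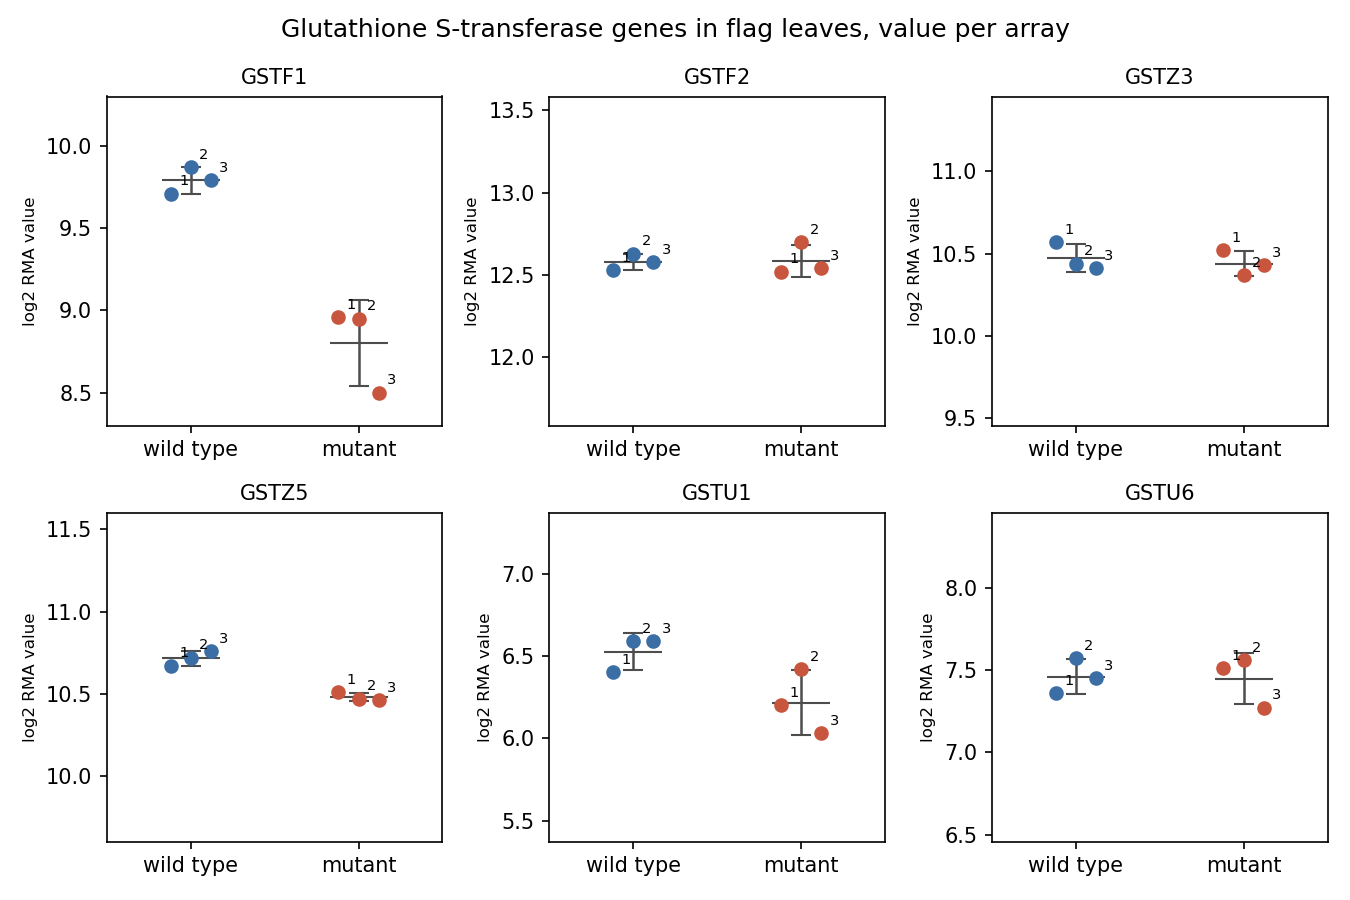
Log2 RMA values of the 6 named glutathione S-transferase genes on each array, in wild type (blue) and mutant (red) flag leaves, with the replicate number beside each point, the group mean as a bar and the SD as whiskers (n = 3). Each panel spans the same range of log2 units, and the groups are apart in GSTF1 (gap 0.74) and GSTZ5 (gap 0.17) and overlap in the other 4 genes.

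All differences here stand against a shift of the gene values, which the table of all probe sets did not share. The array medians over genes were 7.29, 7.27 and 7.21 in wild type and 7.60, 7.42 and 7.40 in mutant replicates 1 to 3. Over all probe sets they were 4.68, 4.68 and 4.72 in wild type and 4.58, 4.67 and 4.66 in mutant replicates 1 to 3. The median difference of all genes was 0.10, and relative to it GSTF1 lay at -1.08 and GSTZ5 at -0.34. By limma, 27.3% of all genes passed an adjusted p of 0.05 (Benjamini-Hochberg over all genes), with 3752 higher and 1131 lower in mutant leaves. When each array was centred on its own gene median, the split was 1804 higher and 3935 lower, and after a shift of each array by the median deviation of its genes it was 2704 and 2167. The first of these moved the median of all genes to -0.12, and under it GSTF1 stood at -1.20 and GSTZ5 at -0.46. A share of 0.3% of all genes had a difference as low as that of GSTF1 or lower, and 10.0% had one as low as that of GSTZ5.

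**Figure D2:**
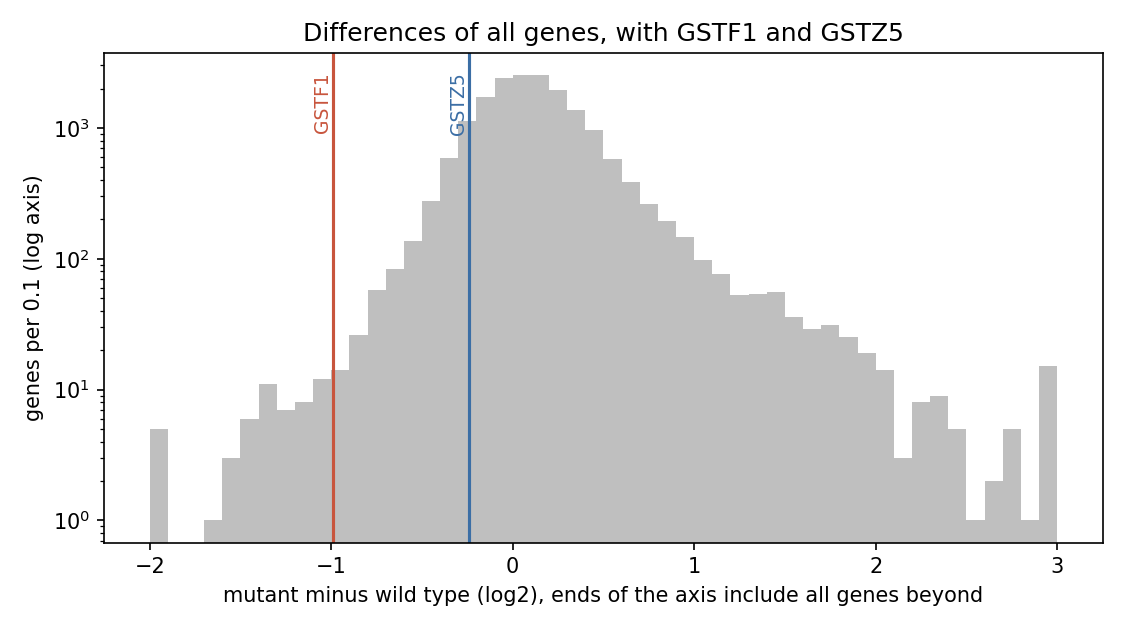
Histogram of the difference between mutant and wild type means (log2) over all 17905 genes, in bins of 0.1 on a logarithmic count axis, with vertical lines at GSTF1 (-0.99) and GSTZ5 (-0.24). GSTF1 lies in the thin lower tail and GSTZ5 on the lower flank of the main peak.

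Of the 6 named glutathione S-transferases, 2 passed the threshold downward and none upward, where 6.32% of all genes passed downward and 21.0% upward. These 2 are GSTF1 and GSTZ5 themselves, so nothing is read from this count. The groups did not overlap in the same 2 genes, while 45.6% of all genes had groups that did not overlap, and 13.4% had such groups with the mutant lower. The median difference of the 4 other members was -0.02, beside 0.10 for all genes. The gene tables used hold no product names, so most of the rice family is missing here and these 4 do not stand for it.

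The tau gene GSTU1 lay just outside the choice. Its values were 6.40, 6.59 and 6.59 in wild type replicates 1 to 3 and 6.20, 6.42 and 6.03 in mutant replicates 1 to 3. The highest mutant array, replicate 2, lay above the lowest wild type array, replicate 1, by 0.02. The difference was -0.31 (SE 0.11, 95% interval -0.58 to -0.05), with a limma adjusted p of 0.081 and an unadjusted p of 0.0274. GSTU1 thus had a larger measured difference than GSTZ5 and a wider spread between replicates, with a pooled SD of 0.16. Its probe set is of a kind (name ending in _s_at) that can bind related transcripts.

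The other 3 named members differed by less than the spread between replicates. The phi gene GSTF2 was at 12.58 ± 0.05 in wild type and 12.59 ± 0.10 in mutant leaves, a difference of 0.01 with a 95% interval of -0.18 to 0.20. GSTF1 and GSTF2 share their class by name and their chromosome, and the difference between these phi genes was not tested. The tau gene GSTU6 differed by -0.01 (95% interval -0.25 to 0.23), and its second, dim probe set by -0.07. GSTZ3, a zeta gene by name, was at 10.47 ± 0.09 and 10.44 ± 0.07, a difference of -0.04 (95% interval -0.22 to 0.15). The probe set used (name ending in _x_at) is also of a kind that can bind related transcripts. The dimmer probe set of GSTZ3, not of this kind, differed by -0.10 (SE 0.16). The intervals of GSTZ3 and GSTZ5 overlap, and the difference between these genes, both zeta by name only, was not tested.

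The size of each difference was also followed through 16 alternatives of the processing. GSTF1 lay between -1.20 and -0.83, and the value nearest to 0 was the one without mutant replicate 3. GSTZ5 lay between -0.46 and -0.19, and between -0.26 and -0.22 when 1 array was left out. The call by which GSTZ5 was chosen was made in 7 of the 16 alternatives and in none of the 6 fits without 1 array, which describes the choice and tests nothing. GSTU1, which was not chosen, passed in 4 of the 14 alternatives that gave it a value, among them the fit without mutant replicate 2, where its difference was -0.42.

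**Figure D3:**
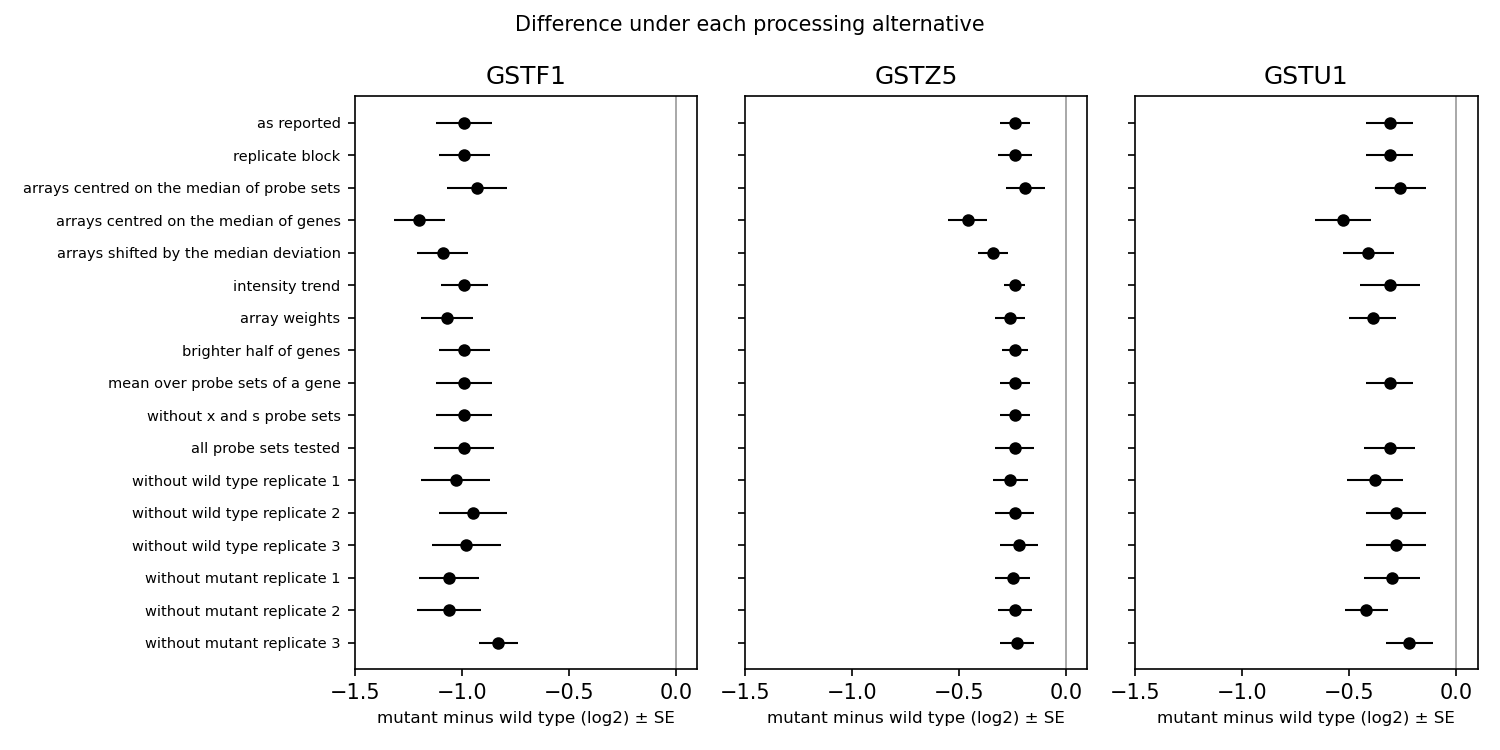
Difference between mutant and wild type means (log2, points) with its SE (whiskers) for GSTF1, GSTZ5 and GSTU1 under the reported processing and each alternative. GSTF1 lies between -1.20 and -0.83, GSTZ5 between -0.46 and -0.19 and GSTU1 between -0.53 and -0.22.

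Glutathione is built from cysteine, so genes matched by name to sulfur and cysteine assimilation were placed beside the transferases. Of 11 measured members, 1 rose, 2 fell and 8 did not pass, with a median difference of 0.14. The 3 called of 11 stand beside 27.3% of all genes, so this count of calls is near the background. Groups did not overlap in 10 of the 11, in either direction, beside 45.6% of all genes. The list was not tested as a set. SAT4, named as a serine acetyltransferase, the enzyme that makes the carbon skeleton of cysteine, fell from 10.23, 10.38 and 10.38 in wild type to 9.73, 9.72 and 9.52 in mutant replicates 1 to 3. That is a difference of -0.67 (SE 0.09, limma adjusted p = 0.00206), with every mutant array below every wild type array. Its probe set, too, can bind related transcripts.

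OsAPRL1, also named APR1 after adenylylsulfate reductase, which reduces activated sulfate, fell from 12.48, 12.48 and 12.42 to 12.05, 11.66 and 11.90. The difference was -0.59 (SE 0.11, limma adjusted p = 0.00685), and the groups did not overlap. Its other probe sets differed by -0.54 and -0.47. SAT4 passed in all 15 alternatives that gave it a value and OsAPRL1 in all 16. OsAPRL2 to OsAPRL5 are in the list through reductase-like names, and whether they act in sulfate reduction was not checked here. Of these, OsAPRL4 rose by 0.31 (limma adjusted p = 0.0398). Its call held in 8 of 16 alternatives and, of the fits without 1 array, only in the one without mutant replicate 2. Over those alternatives its difference ran from 0.10 to 0.39 and its limma adjusted p from 0.00437 to 0.473.

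Serine acetyltransferase genes did not move as a group. SAT2 differed by -0.23 (limma adjusted p = 0.0507) and SAT5 by 0.20 (limma adjusted p = 0.0693), neither past the threshold. The probe sets of SAT1 disagreed in size, with 0.18 for the bright one used here and 1.07 for a dim one. The bright one (name ending in _x_at) can bind related transcripts. The cysteine synthase genes rcs1 and rcs3, whose enzymes add sulfide to make cysteine, differed by 0.10 and 0.02 and did not pass. Names for glutathione synthesis genes matched none of the genes, and this step was not analysed here.

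Genes that regenerate glutathione or belong to the ascorbate-glutathione cycle were represented by few names. The glutathione reductase RGRC2, which regenerates glutathione from its oxidised form, was at 10.35, 10.27 and 10.35 in wild type and 10.37, 10.32 and 10.23 in mutant replicates 1 to 3. Its difference was -0.02 (SE 0.07, limma adjusted p = 0.849), and the groups overlapped, while a second, dim probe set of RGRC2 differed by -0.38. Of 9 genes of the ascorbate-glutathione cycle, which removes hydrogen peroxide, 0 passed by limma, where 27.3% of all genes passed in either direction, with differences between -0.18 for OsMDHAR2 and 0.38 for OsAPx5 and a median of 0.00. At an unadjusted p under 0.05 there was 1, OsAPx5. OsAPx5, an ascorbate peroxidase, had every mutant array above every wild type array and a limma adjusted p of 0.0539. It passed in 4 of the 15 alternatives that gave it a value. Of the fits without 1 array it passed only in the one without mutant replicate 3. Over those alternatives its limma adjusted p ran from 0.02 to 0.255. Another cycle gene with separate groups, the ascorbate peroxidase OsAPx2, differed by -0.13 (limma adjusted p = 0.195). Its other 3 probe sets differed by -0.14, -0.08 and -0.50, and in the last the values were 8.10, 8.12 and 7.99 in wild type and 7.68, 7.58 and 7.44 in mutant replicates 1 to 3, so that the groups were apart and the probe sets disagreed in size. OsAPx7 differed by 0.13 (limma adjusted p = 0.23).

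The step before that of the zeta enzymes in tyrosine breakdown was represented by HGO, named as a homogentisate dioxygenase, which opens the ring of homogentisate. HGO was at 7.71, 7.76 and 7.61 in wild type and 8.13, 8.26 and 8.17 in mutant replicates 1 to 3. All mutant arrays were above all wild type arrays, and the difference was 0.49 (SE 0.08, limma adjusted p = 0.00404). HGO was thus higher, while GSTZ5 was lower and GSTZ3 near 0. GSTZ5 and GSTZ3 are zeta genes by name only, and whether either acts in tyrosine breakdown was not tested. HGO passed in 15 of 16 alternatives, including all 6 fits without 1 array. Under centring on the gene median it stood at 0.28 and did not pass (limma adjusted p = 0.0623, in a range of 0.000585 to 0.0623 over the alternatives).

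A single gene each was matched by name to the ABCC transporters and to the glyoxalase pathway. Members of the ABCC transporter family carry glutathione conjugates and other organic anions into the vacuole. OsMRP5, also named ABCC13 and LPA2, is of this family by name, and what it carries itself was not analysed here. OsMRP5 was at 7.44, 7.51 and 7.38 in wild type and 8.0, 7.62 and 8.04 in mutant replicates 1 to 3. Mutant replicate 2 was close to the wild type arrays. The difference of 0.44 (SE 0.12) passed by limma (adjusted p = 0.0327), but of the fits without 1 array it passed only in the one without mutant replicate 2, and over all alternatives its adjusted p ran from 0.00615 to 0.155. OsGLYI11, a glyoxalase that acts on the adduct of methylglyoxal and glutathione, differed by -0.13 (limma adjusted p = 0.222).

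**Figure D4:**
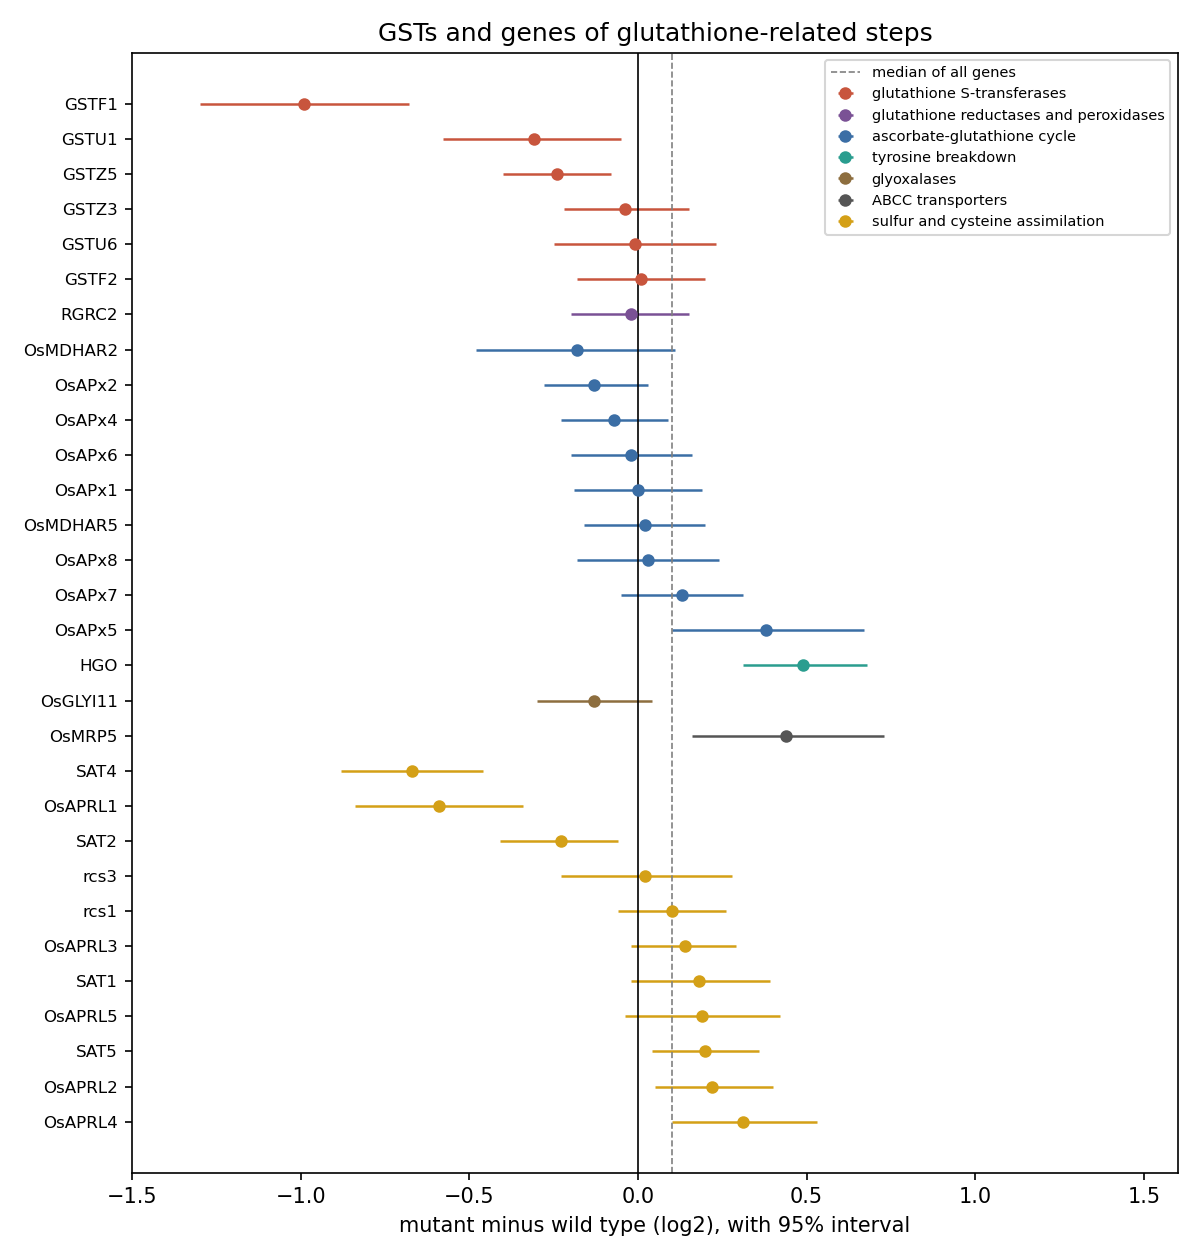
Difference between mutant and wild type means (log2, points) with 95% intervals (bars) for the named glutathione S-transferases and for genes of related steps, coloured by list, with the median of all genes (0.10) as a dashed line. GSTF1, SAT4 and OsAPRL1 are the lowest points at -0.99, -0.67 and -0.59, and HGO is the highest at 0.49.

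The genes whose profile over the 6 arrays was most like that of each transferase were found by the root mean square distance between profiles centred on their own mean, over 2474 genes with a name. These neighbours share the contrast that chose the transferases, so they are given as a description. For GSTF1 the nearest were Hd3a, the florigen gene that promotes flowering (distance 0.111), PRXIIE-2, a peroxiredoxin that reduces peroxides (0.119), and VIT2, a vacuolar iron transporter (0.128). Hd3a was at 9.95, 10.23 and 10.13 in wild type and 9.20, 9.50 and 8.97 in mutant replicates 1 to 3, so that, as for GSTF1, mutant replicate 3 was the lowest array. PRXIIE-2 and VIT2 were lowest in mutant replicate 3 as well, at 9.0 and 8.22.

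For GSTZ5 the nearest were GRXS7, a glutaredoxin (distance 0.013), OsTrxf, an f-type thioredoxin (0.022), and PIP2-2, a water channel of the plasma membrane (0.028). GRXS7 was at 11.70, 11.76 and 11.77 in wild type and 11.54, 11.53 and 11.49 in mutant replicates 1 to 3. The difference of each of the 3 genes was -0.23. Small distances were common for GSTZ5, with 37 named genes within 0.05 and 712 within 0.15. For GSTF1 there were 0 within 0.05 and 6 within 0.15.

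**Figure D5:**
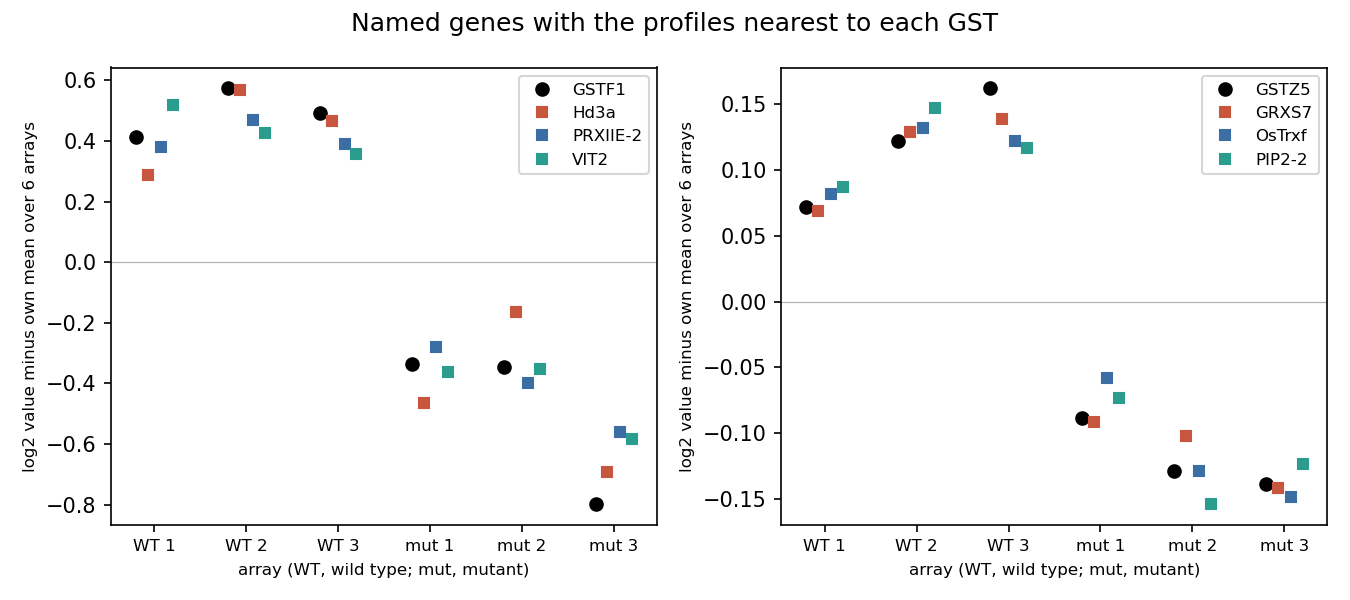
Log2 value minus the gene's own mean over the 6 arrays, for GSTF1 (left, black circles) and GSTZ5 (right, black circles) and the 3 named genes nearest to each (coloured squares), by array. In the left panel the 4 genes are lowest in mutant replicate 3, while in the right panel the mutant arrays lie within a narrow band, and the vertical scales differ.

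The tissue label was checked against marker genes. Of 7 genes matched by name as leaf blade photosynthesis markers, 6 were bright on all arrays and RBCS1 was dim at 2.35 to 2.68. By limma 0 of them passed, and before adjustment 1 had a p under 0.05. That 1 was FBA1 (limma unadjusted p = 0.0199), also named cALD, whose part in photosynthesis was not checked. The summed linear level of all 7 was 79149 to 80612 in wild type and 77964 to 82454 in mutant arrays. Some markers of other tissues rose in the same arrays, and their counts stand beside 21.0% of all genes higher and 6.32% lower. Of 23 panicle and flower organ markers 10 rose and none fell, led by OsMADS7 (1.71) and OsMADS8 (1.57), factors that specify flower organs. OsMADS7 and OsMADS8 were dim in wild type, at 3.51 and 4.25. With arrays centred on the gene median, 8 of the panicle markers were higher and 4 lower. The summed linear level of the 23 markers overlapped between wild type (6255 to 6476) and mutant arrays (6144 to 6513). That sum rests mainly on the bright OsMADS14 (12.08 in wild type, 11.98 in mutant), which did not pass. It does not describe the dimmer markers that rose. Of 27 dividing cell markers 10 rose and 1 fell, with Oskn1 (1.47) and CycB2;2 (1.37) the highest, and their summed level was 1281 to 1376 in wild type and 1507 to 1835 in mutant arrays. Of 14 vascular and secondary wall markers LAC7 rose (1.97) and none fell, while centring arrays on the gene median gave 1 higher and 6 lower. Sums over the 14 were 816 to 859 in wild type and 771 to 801 in mutant arrays. Those sums rest mainly on SUT1 (9.15 in wild type, 8.92 in mutant), which did not pass. RMA values have no 0, so no marker could be called absent. The part of these tissues in the GSTF1 and GSTZ5 differences was not tested, and less transcript per cell cannot be told apart from fewer cells that hold it. The OsSLAC7 transcript itself was not analysed here, since the gene tables used list no locus of that number, so the labels were not checked against it.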

How the data were processed

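The table the authors deposited holds log2 values for 57381 probe sets. Per the submitters' processing notes they come from RMA in the affy package, whose version is not given in the sources used here. This method corrects background, equalises intensity distributions between arrays and summarises probes, so differences in total RNA are removed. Scanner files were not used here. The 123 AFFX controls were left out, which leaves 57258 probe sets, of which 22436 had 1 gene, 95 several and 34727 none in the platform annotation. All 17905 genes matched the RefSeq gene table of assembly ASM3414082v1, and 2474 of them carried a gene name rather than only a LOC number or clone label. Coordinates were left out.

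The mutant against wild type comparison used R 4.3.3 and limma 3.58.1, with lmFit, then eBayes, no block, two-sided tests and Benjamini-Hochberg adjustment over all genes at a threshold of 0.05. Array number limits the precision. In a simulation of the mutant and wild type comparison over 17905 genes, the share of changed genes recovered was 100% for a log2 change of 2, 91.0% for 1 and 38.8% for 0.5. Only 66 genes were changed by 2, 67 by 1 and 67 by 0.5, and 160 genes were called. The real comparison called 4883 genes, so the adjustment was stricter in the simulation, and these shares do not carry over to the real comparison.

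The members and lists were chosen with earlier results of these data known. Lists are name patterns, and 4 genes that share a name with a list by accident were removed, 2 of them (bHLH081 and MADS18) after their values were seen. Named were both transferases, all other named glutathione S-transferases, up to 4 members of each list with the smallest adjusted p, and the 3 nearest profiles. SAT1, SAT5, rcs1, rcs3 and the genes beside the transferases on the chromosomes were named after their values were seen. Tables and figures were made with pandas 2.3.3 and matplotlib 3.10.9 in Python 3.11.15.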

Additional observations from a re-analysis of the deposited data

How the results depend on the processing

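GSTF1 kept its direction in all 16 alternatives and moved by more than the spread between replicates only with arrays centred on the median of genes (-1.20). GSTZ5 also kept its direction, and stood at -0.19 with arrays centred on the median of probe sets, -0.46 with the median of genes and -0.34 after the median deviation shift. Without 1 array GSTF1 ran from -1.06 to -0.83 and GSTZ5 from -0.26 to -0.22. The replicate numbers gave no sign of pairing. Correlations of same-numbered deviations were 0.12, 0.12 and -0.02, and those of differently numbered arrays ran from -0.32 to 0.25. With 3 arrays per group these values cannot settle whether the arrays were paired. With a replicate block 4754 genes were called against 4883, GSTF1 stayed at -0.99 and GSTZ5 at -0.24, 1 glutathione S-transferase (GSTF1), 1 gene of the ascorbate-glutathione cycle and 0 ABCC transporters passed. All genes called ran from 2700 (without wild type replicate 3; 3000 without wild type replicate 2) to 4623 without 1 array. Glutathione S-transferases called numbered 1 with arrays centred on the median of probe sets or all probe sets tested, and 1 to 2 without 1 array. They numbered 3, all lower and with GSTU1 among them, with the median of genes, the median deviation shift or array weights. The ascorbate-glutathione cycle had 2 with arrays centred on the median of genes (0 higher, 2 lower) or an intensity trend (1 higher, 1 lower). It had 1 with the median of probe sets (higher) or the median deviation (lower), and 0 to 1 without 1 array. With the median of genes, 0 tyrosine breakdown genes and 0 ABCC transporters passed. The same centring gave 1 glyoxalase (lower), 2 leaf blade markers (0 higher, 2 lower) and 7 vascular markers (1 higher, 6 lower). It split panicle markers into 8 higher and 4 lower and dividing cell markers into 7 higher and 3 lower. With the median deviation it was 0 ABCC transporters and 3 vascular markers (1 higher, 2 lower), with panicle markers at 8 higher and 2 lower. With an intensity trend it was 1 glyoxalase (lower) and 7 sulfur genes (4 higher, 3 lower). That setting also gave 3 leaf blade markers (2 higher, 1 lower) and 2 vascular markers (1 higher, 1 lower). In the brighter part of the genes, where fewer were tested, it was 6 sulfur genes, 1 leaf blade, 2 panicle and 1 dividing cell marker. The leaf blade list had 1 with the mean over probe sets or without _x_at and _s_at probe sets. With all probe sets tested 0 ABCC transporters and 7 dividing cell markers passed. Without 1 array, ABCC transporters numbered 0 to 1, dividing cell markers 6 (without mutant replicate 2) to 11, with 7 without wild type replicate 1, and vascular markers 1 to 2. Causes of these moves were not tested. No value could be given for OsSLAC7 or for glutathione synthesis under any alternative.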

Other observations

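The genes next to each transferase in the RefSeq gene order were read from the same fit, as the 5 nearest measured genes on each side, a choice made with results of these data known. Beside GSTF1 on chromosome 1, 2 of 10 fell and none rose, with a median difference of -0.08. On the whole chromosome 7.25% of 2649 measured genes fell, close to the 6.32% of all genes. LOC4325704, the nearest measured gene on one side, was at 11.37, 11.45 and 11.41 in wild type and 10.85, 11.12 and 10.74 in mutant replicates 1 to 3, a difference of -0.50 (SE 0.11, limma adjusted p = 0.0132). Its groups did not overlap, mutant replicate 3 was its lowest array as in GSTF1, and it passed in all 16 alternatives. LOC4325715 fell by 0.38 (limma adjusted p = 0.0282) and passed in 10 of 16 alternatives, but not without wild type replicate 2 (-0.34) or 3 (-0.37) or without mutant replicate 1 (-0.34) or 3 (-0.33), with limma adjusted p between 0.00609 and 0.0976. By its locus number, OsSLAC7 lies on chromosome 1 as well, and its distance from GSTF1 was not analysed here.

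Beside GSTZ5 on chromosome 3, 1 of 10 fell and none rose, with a median difference of -0.06, and 5.94% of 2456 measured genes of the chromosome fell. The gene that fell, LOC4332452, differed by -0.29 (SE 0.08, limma adjusted p = 0.0339). Of the fits without 1 array it passed only in the one without mutant replicate 2, and over all alternatives its limma adjusted p ran from 0.00357 to 0.116.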
